A study of Mus musculus with 26 samples.

Results

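The peaks described here are strong H3K4me3 peaks that Early-B cells share with Ebf1-/- progenitors and that lie in the interior of protein-coding genes. A peak of the Early-B list was taken when its pileup, the authors' value for the read coverage of a peak, was at least 50 and it overlapped by 1 bp or more a progenitor peak whose pileup was also at least 50. It also had to overlap the span of a protein-coding gene of the mm10 build (GRCm38.p6) and lie more than 1 kb from both ends of every protein-coding gene. This rule gave 926 peaks, which are 9.77% of the 9480 strong shared peaks and 1.93% of the 48054 peaks in the Early-B list. They lay in 862 host genes on 20 chromosomes. Of the other strong shared peaks, 7898 lay within 1 kb of a protein-coding gene end and 656 lay outside protein-coding genes. The peaks were chosen by pileup in both lists, so pileup, the fold enrichment over background and p are given as description.

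The study compared H3K4me3 by chromatin immunoprecipitation and sequencing in mouse Ebf1-/- progenitors and in Early-B cells derived from them. All cells of both groups carry the Ebf1 deletion. Early-B cells received EBF1.ER, an EBF1 protein that tamoxifen switches on, from the retroviral vector MigR1, and were kept for 2 days on OP9 stromal cells. Their medium held 4-O-hydroxytamoxifen and 3 cytokines, namely IL-7, FLT3-L and SCF. The labels give 2 immunoprecipitated samples per group with their input DNA, but 1 peak list stands for each group, so the spread between replicates is not known and no test was made. Read counts are not part of the lists, so the depth is unknown, and the reach of a peak can move with depth. As a check of the labelled cells, both lists held a peak at most 1 kb from an end of 22 of 35 B lineage genes. For 12 more, among them Pax5 and Igll1, the Early-B list alone did, and for 1 neither did. Of 30 stromal genes, 14 had such a peak in the Early-B list alone and 1 in the progenitor list alone. Of 39 stem, myeloid and erythroid genes, 1 had it in the Early-B list alone and 8 in the progenitor list alone. For 40 T lineage and Notch genes the counts were 3 and 2. Both lists held such a peak for 27 of these 40, for 22 of the 39 and for 11 of the 30 stromal genes. Over all protein-coding genes, 53.5% had a peak of both lists at either end. The count in both lists thus does not set B lineage genes apart. Over all protein-coding genes with a known strand, 4.91% had a 5′ end peak in the Early-B list alone and 2.10% in the progenitor list alone. Those shares count the 5′ end only. Only 1 stromal gene, Runx2, hosted an internal peak. The part of OP9 cells in the internal peaks was not tested.

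H3K4me3 is laid down on nucleosomes around sites where transcription starts, and its strongest peaks sit at CpG-rich promoters. Many mammalian genes have more than 1 promoter: a start inside the gene can give a shorter protein or another first exon, and the outer and inner starts can be used in different tissues. A strong peak far from both ends of a gene is therefore a common mark of an inner promoter, of the start of a non-coding RNA within the gene, or of an active enhancer with a high level of the mark.

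Start windows of 5 host genes are shown first. Each has a listed outer start at the 5′ edge of the gene and an inner start under the internal Early-B peak. In Mef2c and Pik3r1 the progenitor peak did not cover the inner start. Of 528 host genes with a start in an internal peak, 212 (40.2%) had a further listed start upstream of it, so this layout is not the most common. Each window is RefSeq sequence of GRCm38.p6 from 250 bases before to 50 after the listed start, 5′ to 3′ on the strand of the gene. Capitals mark matches, on either strand, to TATAAA (the TATA box), GGGCGG (the GC box), CCGGAAG (an ETS core), the EBF core or the NRF1 palindrome, and a window without capitals has none of them. Dnmt1 encodes the maintenance DNA methyltransferase. Its outer window, chr9:20959839-20960138 on the minus strand, lay in no peak of either list and held 2 CpG. Its inner window, chr9:20952574-20952873, lay in the peak of both lists and held 33 CpG.
Dnmt1 outer start: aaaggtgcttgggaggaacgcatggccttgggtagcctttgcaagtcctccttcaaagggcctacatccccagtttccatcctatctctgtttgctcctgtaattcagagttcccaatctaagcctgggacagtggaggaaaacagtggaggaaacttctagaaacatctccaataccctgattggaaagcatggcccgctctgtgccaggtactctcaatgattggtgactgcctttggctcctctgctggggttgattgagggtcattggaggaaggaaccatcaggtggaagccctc
Dnmt1 inner start: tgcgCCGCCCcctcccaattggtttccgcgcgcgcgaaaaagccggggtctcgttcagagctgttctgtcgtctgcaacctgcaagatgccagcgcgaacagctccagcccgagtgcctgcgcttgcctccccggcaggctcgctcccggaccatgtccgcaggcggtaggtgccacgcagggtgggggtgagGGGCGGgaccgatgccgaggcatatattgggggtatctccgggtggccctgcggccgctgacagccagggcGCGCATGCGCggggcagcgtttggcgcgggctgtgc
Cdc14a encodes a phosphatase of the cell cycle and had the highest Early-B pileup among internal peaks with a listed host start and a fold of 10 or more in each list. Its outer window, chr3:116428692-116428991 on the minus strand, lay in no peak and held 3 CpG. The inner window, chr3:116424023-116424322, held 12 CpG.
Cdc14a outer start: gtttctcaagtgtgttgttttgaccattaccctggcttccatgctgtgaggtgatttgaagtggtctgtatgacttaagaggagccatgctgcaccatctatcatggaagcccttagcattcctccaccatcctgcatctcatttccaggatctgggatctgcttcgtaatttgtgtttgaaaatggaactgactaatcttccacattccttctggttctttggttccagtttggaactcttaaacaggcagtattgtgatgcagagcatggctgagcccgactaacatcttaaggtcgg
Cdc14a inner start: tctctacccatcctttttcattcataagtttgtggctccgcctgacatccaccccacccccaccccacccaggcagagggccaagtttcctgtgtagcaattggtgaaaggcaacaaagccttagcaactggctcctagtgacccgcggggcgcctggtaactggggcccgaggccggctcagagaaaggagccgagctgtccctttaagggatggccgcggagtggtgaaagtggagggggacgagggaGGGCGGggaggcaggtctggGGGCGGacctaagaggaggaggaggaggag
Runx1 encodes a transcription factor needed for blood formation, with a known distal and a known proximal promoter. Peaks of both lists covered its distal window, chr16:92826025-92826324 on the minus strand, with 2 CpG, and its proximal window, chr16:92697280-92697579, with 35 CpG.
Runx1 distal start: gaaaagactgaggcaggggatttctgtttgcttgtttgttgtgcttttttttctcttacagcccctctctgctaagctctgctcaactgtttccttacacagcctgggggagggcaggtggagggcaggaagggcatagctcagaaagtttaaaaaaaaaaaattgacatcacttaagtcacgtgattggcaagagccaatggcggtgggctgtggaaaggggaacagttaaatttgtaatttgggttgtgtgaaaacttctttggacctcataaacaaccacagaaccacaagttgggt
Runx1 proximal start: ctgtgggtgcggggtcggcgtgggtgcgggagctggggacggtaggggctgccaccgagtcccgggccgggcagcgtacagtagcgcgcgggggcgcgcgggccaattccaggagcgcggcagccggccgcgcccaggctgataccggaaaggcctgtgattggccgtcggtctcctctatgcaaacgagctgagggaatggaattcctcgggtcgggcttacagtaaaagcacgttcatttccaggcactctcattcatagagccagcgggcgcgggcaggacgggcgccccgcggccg
Mef2c encodes a MADS-box transcription factor of muscle and lymphoid cells. Its outer window, chr13:83503784-83504083 on the plus strand, held 1 CpG and lay in no peak. Its inner window, chr13:83523406-83523705, held 10 CpG and lay in the Early-B peak but just outside the progenitor peak.
Mef2c outer start: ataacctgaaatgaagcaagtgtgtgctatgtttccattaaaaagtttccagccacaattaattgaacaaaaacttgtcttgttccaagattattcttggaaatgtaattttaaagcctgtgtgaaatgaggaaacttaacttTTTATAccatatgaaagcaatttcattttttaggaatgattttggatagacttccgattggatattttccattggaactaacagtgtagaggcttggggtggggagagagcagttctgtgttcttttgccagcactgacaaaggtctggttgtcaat
Mef2c inner start: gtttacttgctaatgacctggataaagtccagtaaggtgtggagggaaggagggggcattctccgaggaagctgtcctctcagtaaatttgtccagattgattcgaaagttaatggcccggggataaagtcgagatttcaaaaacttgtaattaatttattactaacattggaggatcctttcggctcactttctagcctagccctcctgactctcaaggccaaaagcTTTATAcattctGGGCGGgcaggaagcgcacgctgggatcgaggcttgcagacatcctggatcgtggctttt
Pik3r1 encodes regulatory subunits of PI 3-kinase, the shorter of which come from inner starts. Its outer window, chr13:101768168-101768467 on the minus strand, held 34 CpG and lay in peaks of both lists. Its inner window, chr13:101692581-101692880, held 6 CpG and lay in the Early-B peak alone.
Pik3r1 outer start: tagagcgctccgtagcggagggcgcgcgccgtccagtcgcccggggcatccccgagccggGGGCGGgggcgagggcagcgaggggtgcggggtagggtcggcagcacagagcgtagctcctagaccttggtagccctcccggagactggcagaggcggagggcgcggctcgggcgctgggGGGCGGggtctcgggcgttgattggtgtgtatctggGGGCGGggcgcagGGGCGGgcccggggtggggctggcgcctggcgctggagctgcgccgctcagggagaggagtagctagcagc
Pik3r1 inner start: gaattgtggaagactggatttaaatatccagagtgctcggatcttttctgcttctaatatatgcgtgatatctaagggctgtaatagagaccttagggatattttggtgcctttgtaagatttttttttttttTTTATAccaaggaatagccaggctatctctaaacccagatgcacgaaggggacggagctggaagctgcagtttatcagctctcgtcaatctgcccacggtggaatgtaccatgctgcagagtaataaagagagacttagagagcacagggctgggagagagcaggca

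These 5 genes show how the lists treat outer and inner starts. In Dnmt1 the internal peak had a pileup of 163 in Early-B cells and 203 in progenitors, and it held listed starts 6909 and 7265 bp downstream of the 5′ end of the span. Near the outer start there was only a weak peak, with a pileup of 25.2 in Early-B cells and 11.3 in progenitors, and it ended more than 1 kb upstream of that start. The peak of Cdc14a had a pileup of 227 in Early-B cells and 252 in progenitors, over a start 4669 bp inside the gene. Of the 3 listed Cdc14a starts, this was the only 1 under a peak in either list.

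Runx1 carried the mark at both promoters. The distal peak had a pileup of 133 in Early-B cells and 137 in progenitors, and the proximal peak, 128745 bp further in at its start, had 52.0 and 95.2. The proximal peak was 5412 bp wide in Early-B cells and 6919 bp in progenitors. In Mef2c the internal peak spanned 9989 bp in Early-B cells and 10993 bp in progenitors, with pileups of 105 and 146. The Early-B peak began 19159 bp from the 5′ end of the gene and the progenitor peak at 20000 bp, so the start at 19639 bp lay in the first alone. The Pik3r1 internal peak was 6099 bp wide in Early-B cells and 1758 bp in progenitors, with pileups of 61.9 and 111. The progenitor peak ended at 74543 bp, before the inner start at 75587 bp, which the Early-B peak covered to 76972 bp. Mef2c was chosen after its values were seen.

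**Figure D1:**
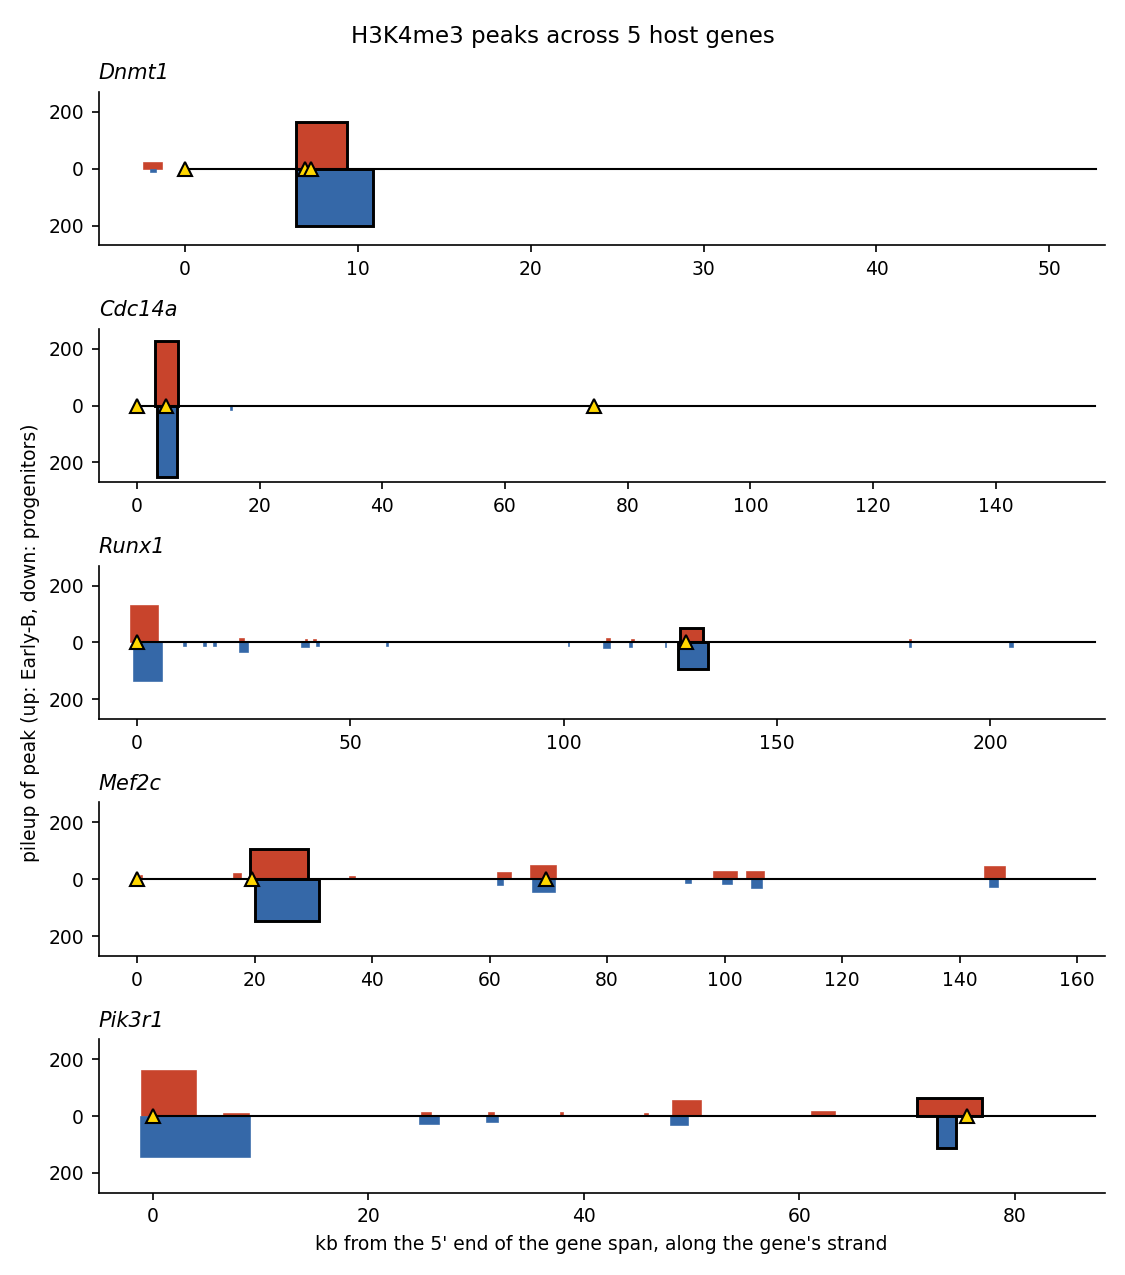
H3K4me3 peaks across Dnmt1, Cdc14a, Runx1, Mef2c and Pik3r1, with Early-B peaks drawn upward and progenitor peaks downward. The x axis is kb from the 5′ end of the gene span, bar height is the authors' pileup, bar width is the peak's reach, black outlines mark the internal shared peaks and triangles mark listed starts. Dnmt1 and Cdc14a have no peak over the outer start, while Runx1 and Pik3r1 have a peak of both lists there.

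Across all 926 peaks, the label of internal promoters was set against the listed starts. RefSeq start windows were at hand for 17492 of 21887 protein-coding genes, which included the hosts of 766 internal peaks. A listed start of the host gene lay within 539 of them, 70.4% of the 766. The other 227 of the 766 held none, and 208 of these held no listed start of any gene. Over all 926 peaks, 30 held only the start of a gene other than the host, and 149 had a host without a window and held no start at all. In 106 peaks there were 2 or more host starts. The name internal promoter thus has a listed host start behind it in 539 peaks and lacks one in 227. In 316 of the 539 (58.6%), however, the most upstream listed start of the host was itself in the peak. For these no listed start lay further out. The host had more than 1 listed start in 301 of the 539 (55.8%). Of 133 peaks that were 5000 bp or wider in Early-B cells and had a host in the table, 109 (82%) held a host start.

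Peaks with a host start were higher and wider in both lists than peaks without one. Their median fold enrichment was 15.2 in Early-B cells and 19.4 in progenitors, against 9.37 and 10.6 for peaks without a listed start. Median width was 3325 bp in Early-B cells and 2958 bp in progenitors with a host start, against 2445.5 and 2039 bp without. Over all 926, the median width was 3080.5 bp in Early-B cells and 2744 bp in progenitors, and the median fold 13.2 and 16.9. Strong shared peaks at gene ends were wider and higher, with medians of 3367 and 3006 bp and folds of 16.6 and 20.7. Those outside genes were narrower and lower, with 2491.5 and 1959.5 bp and folds of 9.53 and 11. Internal peaks lay between these classes in each of the 4 medians.

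Strong peaks inside genes met a strong peak of the other list less often than strong peaks at gene ends did. Of 1581 strong Early-B peaks inside genes, 926 (58.6%) met a strong progenitor peak, 381 met only a weaker one and 274 met none. At gene ends 7898 of 8265 strong Early-B peaks (95.6%) met a strong progenitor peak, and outside genes 656 of 1597 (41.1%) did. Counted from the other list, 960 of 1295 strong progenitor peaks inside genes (74.1%) met a strong Early-B peak and 335 met a weaker one. None of the 1295 was without any Early-B peak. The Early-B list is the longer of the lists, so these shares depend on how many peaks each list holds. They also depend on the pileup limit of 50, which internal peaks lie nearer to. Among strong shared peaks, the lower quartile of Early-B pileup was 73.0 inside genes and 101 at gene ends.

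The upstream starts of the host genes fell mostly into a bare and a marked group. Among 528 host genes with a start in an internal peak, 212 had a further listed start upstream of it. In 78 of these (36.8%) every upstream start lay in no peak of either list, and in 115 (54.2%) at least 1 upstream start lay in a peak of both lists. The last 19 had an upstream start in a peak of 1 list. Over all 21263 listed starts of protein-coding genes, 51.0% lay in a peak of both lists and 42.4% in none. The 314 listed starts of these hosts outside the internal peaks were close to that background, with 146 (46.5%) in a peak of both lists and 132 (42.0%) in none.

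Hosts whose upstream starts were bare had CpG-poor outer starts and CpG-rich inner starts. CpG content is given as the observed number of CpG over that expected from the C and G of the window. In the 78 hosts with bare upstream starts, the median was 0.263 upstream and 0.706 inside the peak, and the inner start was the richer in 66 of 78. Over all protein-coding starts in no peak of either list the median was 0.220, and over all 686 host starts in internal peaks 0.748. The contrast in these hosts is thus near the general one between bare and marked starts. In the 115 hosts with a marked upstream start, the medians were 0.721 upstream and 0.692 inside, and the inner start was the richer in 49. The hosts with bare outer starts include Kdm4c, a histone demethylase, whose outer start had a ratio of 0 and whose inner start, 9382 bp in, had 0.893. They also include Gnas, an imprinted gene for a G protein subunit, with its start at the edge of the span at 0.650 and its inner starts, 43429 to 45686 bp in, at 0.839 to 0.903. Gpam, an acyltransferase of lipid synthesis, had 0.431 at the outer and 0.873 at the inner start. Septin9, a cytoskeletal GTPase, was an exception on the CpG measure, with 0.812 at its bare outer start.

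**Figure D2:**
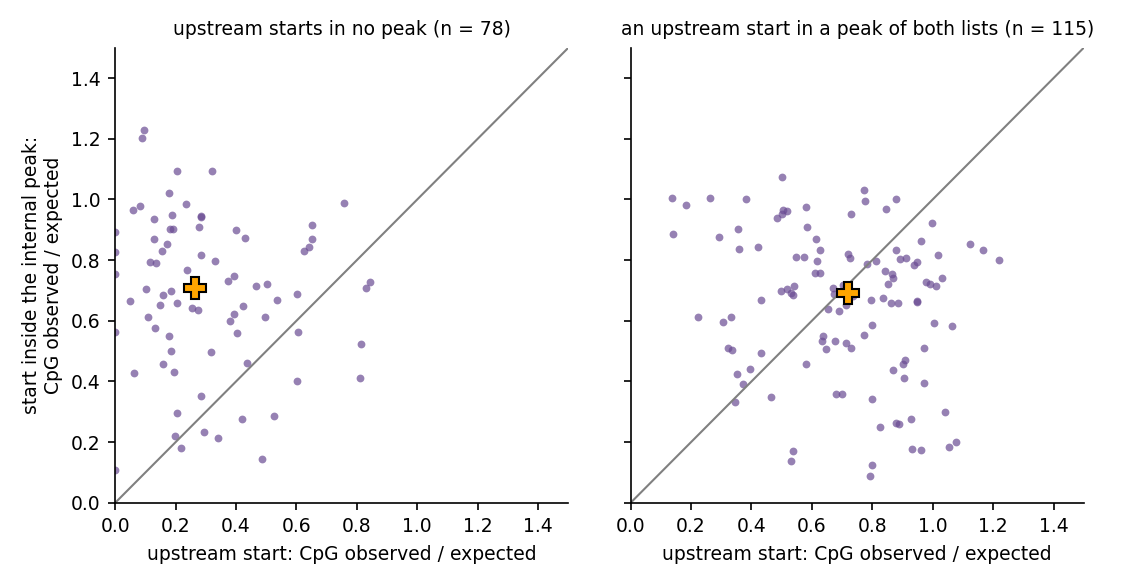
CpG observed over expected at listed starts upstream of an internal peak (x axis) and at the host start inside it (y axis), 1 point per host gene, with the grey line marking equal values and the orange cross the medians. With bare upstream starts (left, 78 hosts) the medians were 0.263 upstream and 0.706 inside. With an upstream start in a peak of both lists (right, 115 hosts) they were 0.721 and 0.692.

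The 686 host starts inside the peaks were near those at gene ends in GC and CpG content. Their median GC share was 61.3% and the median CpG ratio 0.748. Starts in strong shared peaks at gene ends had 62.0% and 0.816, and starts in no peak of either list had 48.7% and 0.220. The GC box GGGCGG was in 62.1% of the inner windows, 69.2% of the gene-end windows, 46.2% of all protein-coding windows and 35.7% of all 32851 windows of the table. TATAAA was in 4.81% of the inner windows, 5.56% at gene ends, 12.6% of protein-coding windows and 13.6% of all. The ETS core CCGGAAG was in 15.5% of the inner windows, 23.0% at gene ends, 11.6% of protein-coding windows and 8.86% of all. Inner windows lay below gene-end windows on each of these 3 motifs. The EBF core was in 5 inner windows, 0.729%, against 0.859% at gene ends, 0.959% of protein-coding windows and 0.904% of all. The NRF1 palindrome was in 10 inner windows, 1.46%, against 2.79% at gene ends, 1.33% of protein-coding windows and 0.971% of all. Each motif was counted once per window, on both strands, whether or not it overlapped another.

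Internal peaks with a host start lay nearer the 5′ end than peaks without one. With a host start, the peak centre was a median of 9892.5 bp from the 5′ end of the span, and 77.6% lay before its middle. Without a listed start the median was 30064 bp, and 58.7% lay before the middle. Hosts of peaks without a listed start were also longer, with a median span of 100969 bp against 51621 bp. As a fraction of the span, the median distance was 0.430 without a listed start and 0.291 with a host start. Over the 766 with a known strand, 151 lay within 5000 bp of the 5′ end, 436 more than 10000 bp and 76 more than 100000 bp from it. The farthest host start by this measure was that of Celf2, an RNA-binding splicing factor, whose peak lay 675640 bp in, with pileups of 109.7 and 148.5. Hosts were long genes, with a median span over the peaks of 60938.5 bp against 17169 bp for all protein-coding genes. Of genes up to 20000 bp long, 1.17% hosted an internal peak, and of genes over 100000 bp, 11.1% did.

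**Figure D3:**
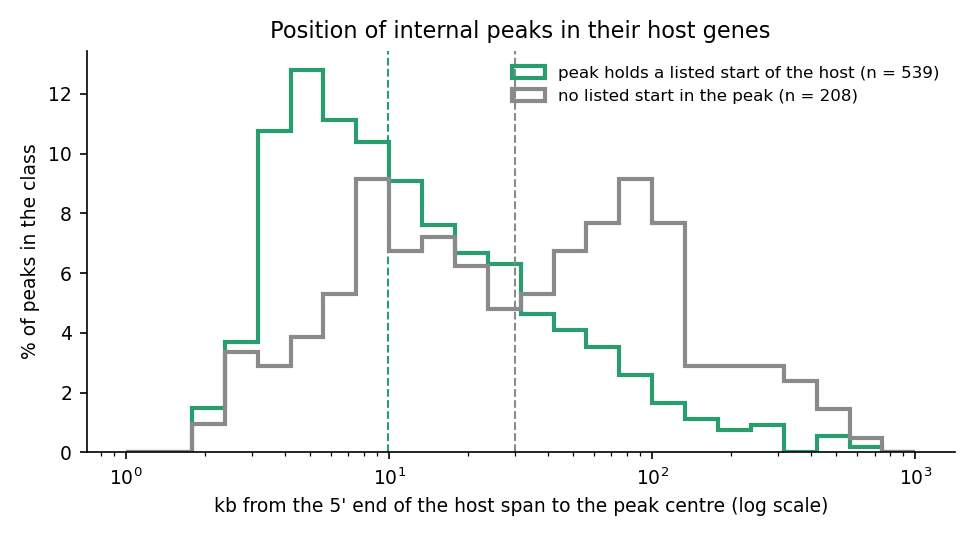
Distance from the 5′ end of the host span to the peak centre (x axis, kb, log scale) as the share of peaks in each class (y axis, %), for 539 peaks with a listed host start (green) and 208 with no listed start (grey). Dashed lines are the medians, 9892.5 and 30064 bp.

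The 5′ ends of the host genes were marked less often where the internal peak held a host start. A peak of both lists lay within 1 kb of the 5′ end in 211 of the 539 peaks with a host start (39.1%), and no peak of either list in 265 (49.2%). For 132 of the 208 peaks without a listed start (63.5%), the host had a 5′ end peak in both lists. These shares count peaks, so a host with several internal peaks, such as Chd9, enters more than once. Over all protein-coding genes with a known strand the share, counted per gene, was 52.3%. In 316 of the 539 peaks with a host start, the most upstream listed start was itself in the peak. The rule keeps the peak more than 1 kb from the 5′ end, so in these hosts that end is no listed start. Only in 120 of the 539 was the most upstream listed start the end of the span. The lower share is thus partly built in and is not a share of unmarked outer promoters. At either end of the span, 457 of 926 (49.4%) had a peak in both lists, against 53.5% of all protein-coding genes. With gene-end peaks of pileup at least 50 the count was 319, and with a window of 2.5 kb it was 608. Only 762 internal peaks lay more than 2.5 kb from every protein-coding gene end. A nearer one can count as its own gene-end peak at that window, so the rise to 608 is partly built in. At the 3′ end the share was 6.53% of 766, and 8.66% of all genes.

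Around a start, the internal peaks reached about as far to either side as peaks at gene ends. For 373 peaks that hold 1 listed start and cover it in both lists, the peak reached a median of 1009 bp upstream and 2029 bp downstream in Early-B cells. In progenitors it reached 829 bp upstream and 1973 bp downstream. The downstream side was the longer in 328 (87.9%) and 345 (92.5%). At gene ends, 4090 peaks gave medians of 1052 and 2010.5 bp in Early-B cells and 826.5 and 1890.5 bp in progenitors. Their downstream side was the longer in 87.5% and 92.1%.

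Widths in the lists were mostly similar. The median ratio of Early-B to progenitor width was 1.08, and 591 of 926 peaks (63.8%) were the wider in Early-B cells, against 67.8% of all strong shared peaks. At 1.5 times or more, 123 internal peaks (13.3%) were wider in Early-B cells, against a background of 12.4% over all strong shared peaks. In the other direction there were 33 (3.56%), against 2.65%. The share wider in Early-B cells was 11.7% with a host start and 17.3% with no listed start, and 24.4% for strong shared peaks outside genes. At this ratio both shares of the internal peaks are near the background. At a ratio of 2, 39 (4.21%) were wider in Early-B cells, against 4.16% of all strong shared peaks, and 17 (1.84%) in progenitors, against 0.759%.

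Some single peaks differed more. Pde2a, a phosphodiesterase that cleaves cyclic nucleotides, had an internal peak of 8681 bp in Early-B cells and 1166 bp in progenitors, a ratio of 7.45. Its pileups were 96.6 and 77.3, and of its 4 listed starts in the Early-B peak the innermost, 34371 bp from the 5′ end, was outside the progenitor peak. Sbk1, a kinase gene, had 8011 and 1993 bp. Extl3, a glycosyltransferase of heparan sulfate, had 5080 and 1524 bp, and Entpd7 had 1785 and 553 bp. Mid1, a ubiquitin ligase, had the largest ratio at 9.84, from 4164 and 423 bp, but its fold was 6.15 in Early-B cells and 1.5 in progenitors.

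Toward progenitors, most of the largest ratios came where 1 progenitor peak met several Early-B peaks. This was so for 19 of the 33 and for 14 of the 17 at a ratio of 2, and for 27 of all 926 internal peaks. With the widths of all Early-B peaks under the progenitor peak added up, 21 internal peaks (2.27%) remained at least 1.5 times wider in progenitors, and 170 of all strong shared peaks (1.79%). At a ratio of 2, 3 internal peaks (0.324%) remained, and 0.243% of all strong shared peaks. Srgn encodes serglycin, a proteoglycan of blood cell granules. Its progenitor peak of 8260 bp met internal Early-B peaks of 1210 and 6771 bp, which sum to 7981 bp. The wider of these held a host start and had a pileup of 89.6, against 94.0 for the progenitor peak.

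Cnnm2, a magnesium transporter, had a progenitor peak of 6954 bp over Early-B peaks of 1217 and 4601 bp. Rsbn1l had the widest progenitor peak of the set, 15648 bp, over 3 Early-B peaks that sum to 12990 bp. Ptger3, a prostaglandin receptor, had 6634 bp in progenitors over Early-B peaks that sum to 4047 bp, a ratio of 0.61. Ap1b1, an adaptor subunit of vesicle coats, had 5488 bp over 3581 bp in all. In St6galnac6, a sialyltransferase, a single Early-B peak of 708 bp stood against 1976 bp. Of these 6 hosts, St6galnac6 alone met 1 Early-B peak only. In the other direction, 18 of the 123 wider Early-B peaks met more than 1 progenitor peak.

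**Figure D4:**
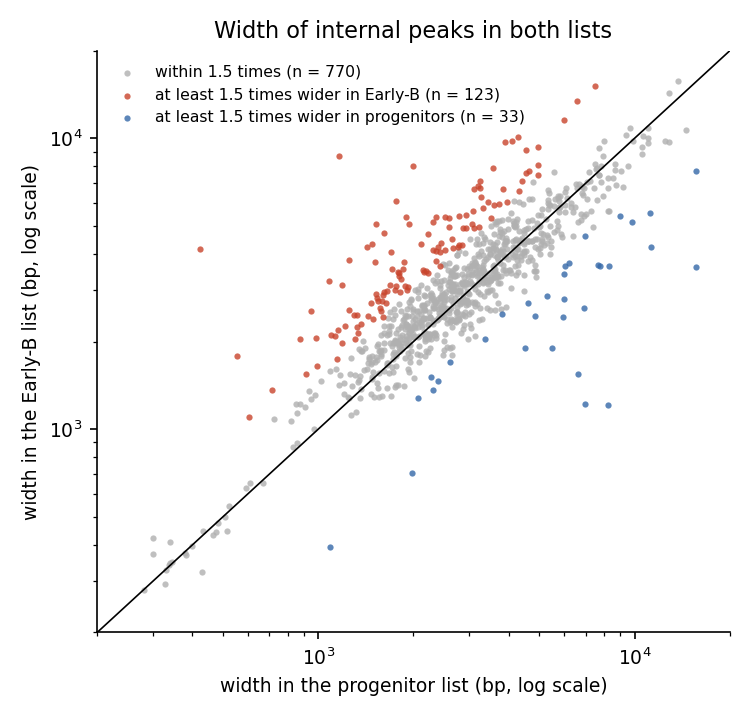
Width of each of the 926 internal peaks in the progenitor list (x axis, bp) and the Early-B list (y axis, bp), on log scales, with the line of equal width. Red points (123) were at least 1.5 times wider in Early-B cells, blue points (33) at least 1.5 times wider in progenitors, and grey points (770) were within that ratio.

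In 7 of the 686 inner host starts, the start lay in the Early-B peak and in no progenitor peak, and in the other 679 both lists covered it. At gene ends 60 of 8495 starts (0.706%) lay in the Early-B peak alone, against 1.02% here. These 7 were in Mef2c, Pde2a, Pik3r1, Sgk1, Smim14, Ubtf and Zap70. Zap70 encodes a kinase of T cell receptor signalling. Its peak was 6027 bp in Early-B cells and 3939 bp in progenitors, with pileups of 90.2 and 105, and the start 2717 bp in lay under the Early-B peak alone. Sgk1, a kinase of salt balance and stress, had 6029 and 3443 bp, and of its 3 starts in the Early-B peak 1 was outside the progenitor peak. Ubtf, a factor of ribosomal RNA transcription, had 6248 and 5733 bp and 6 listed starts, of which the outermost was missed by the progenitor peak. Smim14 encodes a small membrane protein, and its innermost listed start within the peak was covered by the Early-B list alone. Sgk1 and Ubtf were chosen after their values were seen. No inner host start was covered by a progenitor peak alone, which the choice of peaks from the Early-B list fixes.

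The 8 widest internal peaks of the Early-B list ran from 10678 to 15772 bp. Rabgap1l, a GTPase-activating protein, had 15772 bp in Early-B cells and 13771 bp in progenitors, with no listed start. Cradd, an adaptor of cell death signalling, had 15072 and 7523 bp. Hdac7, a class IIa histone deacetylase known in lymphocyte development, had 14303 and 12863 bp over starts 12735 and 13007 bp inside the gene, and its outer start lay in no peak. Mbnl1, a splicing regulator, had 13465 and 6593 bp. Ptp4a3, a phosphatase, had 11556 and 5987 bp. Csk, the kinase that restrains SRC-family kinases, had 10822 and 11048 bp. Smim14, described above, had 10814 and 9682 bp, and Sema4b, a semaphorin, had 10678 and 14497 bp. In all, 94 internal peaks were at least 5000 bp wide in both lists.

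Non-coding genes began inside some of the same peaks, nearly always on the opposite strand. A listed start of a long non-coding RNA lay in 101 internal peaks (10.9%), and that of another protein-coding gene in 1. The rule leaves out peaks at protein-coding gene ends, so the second count is largely built in. Where both strands were known, 90 of 91 peaks with another gene's start held one antisense to the host. No such share was counted for peaks at gene ends, so the direction has no background beside it. In 72 peaks a host start and another gene's start lay together, 71 of them in opposite directions. An end of a non-coding gene lay within 1 kb of 174 internal peaks (18.8%), against 21.7% of all strong shared peaks and 54.4% of those outside genes. The share near a long non-coding RNA was 15.0%, and 14.9% for peaks at gene ends.

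The internal peaks with a long non-coding RNA end and the highest Early-B pileup were in 11 hosts. Nfkb2, a subunit precursor of the NF-kB factors, had pileups of 199 in Early-B cells and 254 in progenitors over 3 host starts and the start of the antisense gene 4833438C02Rik. Cdc14a shared its peak with Gm40125, and Gpam, with pileups of 216 and 233, shared it with Gm31356. Tlk2, a kinase of chromatin assembly, had 175 and 229 with 1700052K11Rik. Baz1a, a subunit of chromatin remodelling complexes, had 177 and 231 with Gm51983, and Atp2c1, a calcium and manganese pump of the Golgi, had 173 and 236 with Gm40564. Atxn2l, an RNA-binding protein, had 171 and 240 with 4930456A14Rik. Ppp2r5c, a regulatory subunit of protein phosphatase 2A, had 169 and 192 with Gm19605, and Pcmt1, a protein repair methyltransferase, had 167 and 240 with A630066F11Rik. Gabpb1, which pairs with an ETS-family factor, had 187 and 205 with an end of A630026N12Rik in the peak, and Elf2, an ETS factor, had 176 and 224 with an end of 4930577N17Rik. Among these 11 hosts the lowest pileup of either list was 167, in Pcmt1 in Early-B cells.

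An end of a microRNA gene lay within 1 kb of 7 internal peaks (0.756%). The share was 1.49% for strong shared peaks at gene ends and 1.52% for those outside genes. RefSeq gave mature sequences for 5 of the microRNA genes near internal peaks. Shown are the arms of 2 of these, with the seed (bases 2 to 8) in capitals, as examples of a hairpin within and a hairpin beside an internal peak, chosen after their values were seen. Mir330 lies in the peak of Eml2, with pileups of 101.8 in Early-B cells and 151 in progenitors. Mir339 lies 534 bp from the peak of 3110082I17Rik, with 73.8 and 76.4. The 4 arms have different seeds. MicroRNA levels were not analysed here.
mmu-miR-330-5p: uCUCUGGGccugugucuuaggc
mmu-miR-330-3p: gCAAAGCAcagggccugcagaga
mmu-miR-339-5p: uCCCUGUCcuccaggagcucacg
mmu-miR-339-3p: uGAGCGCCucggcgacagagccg

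Peaks without a listed start were lower as a class, but the highest Early-B fold of all internal peaks was among them. Chd9, a chromodomain helicase, hosted 4 internal peaks, more than any other gene, and none of them held a listed start. Its highest had pileups of 251 in Early-B cells and 239 in progenitors and folds of 31.2 and 30.8. The other 3 had pileups of 164 and 134, 55.7 and 146, and 100.2 and 115. Foxp1, a forkhead factor of B cell development, hosted 3. Pileups were 77.1 and 130.1 over a start 256231 bp in, 91.4 and 96.7 over a start 494448 bp in, and 82 and 74.5 for the peak with no listed start. Hivep2, a zinc finger factor, also hosted 3, with 152 and 146 over its start, and 79.2 and 80.5 and then 83.4 and 91.0 for the peaks further in. Gm4724 hosted 3 with pileups between 59.5 and 83.2 across both lists. Of the 862 hosts, 803 had 1 internal peak and 55 had 2.

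Among internal peaks with a fold of 10 or more in each list, the highest Early-B pileups after Chd9 were in Cdc14a, Gpam, Btbd9, Arhgef7 and Ash2l. Ash2l, a subunit of the complexes that write H3K4 methylation, had pileups of 199.6 in Early-B cells and 208 in progenitors. Btbd9 had 209.96 and 163. In progenitors the highest of these was in Rreb1, a zinc finger factor of RAS signalling, with 284 against 136 in Early-B cells and folds of 36.4 and 17.5. Its peak was nevertheless the wider in Early-B cells, with 9740 bp against 3903 bp. N4bp2 had 274 in progenitors and 197 in Early-B cells, and Midn, a nuclear protein of protein degradation, had 258 and 183.

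A small set of internal peaks had high pileup but little enrichment over background. In 15 peaks the fold was below 5 in both lists, and in 13 of these it was below 2. The highest pileup of all, in 2210408I21Rik, was 11480 in Early-B cells and 16049 in progenitors, with folds of 1.17 and 1.03 and widths of 294 and 327 bp. Cdk5rap2 followed with 852 and 1143 and folds of 1.39 and 1.42, and Litaf with 351 and 379 and folds of 1.57 and 1.56. None of the 15 held a host start, and 9 were narrower than 500 bp in Early-B cells. A further 4 peaks had a low fold in progenitors alone. Among them, Sfi1 had pileups of 1708 and 308 with folds of 8.89 and 1.75, and Sp110 had 458 and 182 with 8.36 and 3.89. In the remaining 907 peaks both folds were 5 or higher, and in 614 both were 10 or higher.

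Narrow peaks were few, and many lay beside pseudogenes. There were 27 internal peaks under 1000 bp in Early-B cells, of which 14 lay within 1 kb of a pseudogene end. Over all internal peaks 25 (2.70%) did, against 1.67% at gene ends. None of the 27 held a host start or lay within 1 kb of a long non-coding RNA end. Examples, named after their values were seen, are the peak of Skint6 at Gm12818, 626 and 590 bp wide with pileups of 97.5 and 76.2, and the second peak of Cdk5rap2 at Ywhaq-ps3, 545 and 524 bp with 57.0 and 70.8. The placing of reads from repeated or copied sequence, and its part in these peaks, was not tested.

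Gene lists were read against the 3.94% of all protein-coding genes that hosted an internal peak. The lists differ in gene length, so their median spans stand beside their shares. The 3.94% is not matched for length. Of all protein-coding genes with spans of 20000 to 50000 bp, 4.89% hosted an internal peak, and of those of 50000 to 100000 bp, 8.11% did. Among genes known for inner promoters, 17 of 49 (34.7%) hosted a peak, with a median span of 97104 bp over the list. These genes were listed with earlier results of these data known, so their share is no independent support. For chromatin and DNA methylation genes it was 23 genes (21.3%, 69423 bp). Lymphoid and blood transcription factors gave 16 of 80 (20%, 53474 bp), and cytoskeletal and adhesion genes 17 (16.7%, 78380 bp). Kinases, phosphatases and signalling gave 16 (13.2%, 66183 bp), and ubiquitin and degradation 8 of 61 (13.1%, 91284 bp). RNA-binding and translation genes gave 9 of 82 (11%, 33253 bp). T lineage and Notch genes gave 4 of 40 (10%, 26227.5 bp), B lineage genes 2 of 35 (5.71%, 25031 bp), and stem, myeloid and erythroid genes 2 of 39 (5.13%, 13142 bp). Stromal genes gave 1 of 30 (3.33%, 36000.5 bp), the only list below the share of all protein-coding genes.

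**Figure D5:**
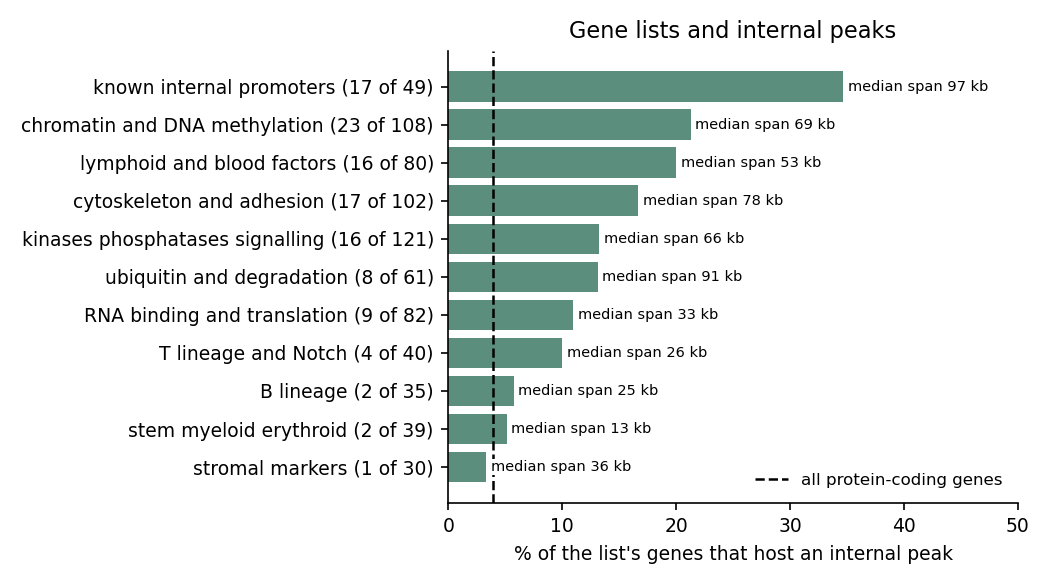
Share of the genes in each list that host an internal peak (x axis, %), with the number of hosts and of matched genes in parentheses and the median span of the list beside each bar. The dashed line is the 3.94% of all protein-coding genes, and the bars run from 3.33% for stromal markers to 34.7% for genes with known inner promoters. The line is not matched for gene length.

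Hosts of the chromatin and DNA methylation list included enzymes that write and erase DNA and histone marks. Dnmt3a, a de novo DNA methyltransferase, had an internal peak of 3025 bp in Early-B cells and 3130 bp in progenitors, with pileups of 129 and 162 over starts 5421 and 5601 bp in. A further inner start of Dnmt3a, 90185 bp in, lay in a peak of both lists with pileups of 45.2 and 105, below the limit in Early-B cells. Kdm4c had 165 and 203. Kdm2a, a demethylase of H3K36 and CpG island binder, had 149 and 170, and Kdm2b, which brings Polycomb complexes to CpG islands, 141 and 165 over starts 88903 and 88920 bp in. Pcgf5, a Polycomb subunit, had 147 and 132. Of the 27 internal peaks in this list, 11 (40.7%) held a host start, against 58.2% of all internal peaks. The 27 include every internal peak of Chd9, none with a listed start. They also include peaks of Kdm2a, Prdm2, Nsd1 and Setd1b, hosts without a start window. Of the 27, 3 (11.1%) were at least 1.5 times wider in Early-B cells and 0 in progenitors, against 12.4% and 2.65% of all strong shared peaks.

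Blood transcription factors carried wide internal peaks. The median width of their 19 peaks was 5412 bp in Early-B cells and 5570 bp in progenitors, against 3080.5 and 2744 bp over all internal peaks. This width was not particular to them. The medians were 6088 and 4950 bp for RNA-binding and translation genes and 5450.5 and 5587.5 bp for genes known for inner promoters. Chromatin and DNA methylation genes were nearer all internal peaks, with 3356 and 3207 bp. Runx3, a RUNX factor of lymphocytes, had 3428 and 5987 bp with pileups of 154 and 143 over its inner, proximal start, and its outer start was covered by peaks of 52.0 and 109.95. Spi1, the ETS factor PU.1 of myeloid and B cells, had 134 and 191. Lmo2, a LIM adaptor of blood stem cells, had 133 and 181, with widths of 3942 and 3695 bp, and like Spi1 it had no start window in the table. Elf1, an ETS factor, had 132 and 197 with widths of 10173 and 10656 bp. Nfkb1 had 119 and 67.6, and its peak held the start of the non-coding gene Gm46827. Ets1, a lymphoid ETS factor, hosted 2 peaks, with 114 and 112 and with 67.7 and 54.0. Tcf4, the E protein E2-2, had 103 and 130. Ikzf1, Pax5, Gata3 and Lef1 hosted no internal peak under this rule.

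B lineage markers with an internal peak were Pou2f2 and Syk. Pou2f2, the octamer factor OCT2, had pileups of 73.1 in Early-B cells and 53.5 in progenitors over a start 48337 bp in. Syk, the kinase of pre-B and B cell receptor signalling, had 58.3 and 85.4 over a start 14272 bp in, and its outer start lay in peaks of 125 and 150. Widths were near equal, 4848 and 4461 bp for Pou2f2 and 5589 and 5775 bp for Syk. Among T lineage and Notch genes, Rbpj, the DNA-binding effector of Notch, had 125 and 168 over starts 34567 and 34707 bp in. Cd247, the zeta chain of the T cell receptor complex, had 88.7 and 118, and Maml3, a Notch coactivator, had 79.3 and 78.2, both with no listed start. Tal1, a factor of blood stem and red cells, had 87.3 and 122.

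Signalling, cytoskeletal, RNA and protein-turnover genes filled the other lists. Ywhaz, a 14-3-3 protein, had pileups of 181 and 227 and widths of 6966 and 6550 bp. Abl1, a tyrosine kinase, had 141 and 135 over starts 71695 and 71929 bp in, and Map3k1, a MAP kinase kinase kinase, had 139 and 199. Arhgef7, a guanine nucleotide exchange factor, had 208 and 219 over a start 30364 bp in, while its outer start lay in a progenitor peak alone, of pileup 20.8. Sptbn1, a spectrin of the membrane skeleton, had 126 and 152. Tnrc6a, the GW182 partner of Argonaute proteins in microRNA silencing, had 161 and 211, and Larp4 and Larp1, RNA-binding proteins of the LA family, had 164 and 222 and then 156 and 184. Usp7, a deubiquitinase, had 168 and 180 over a start 18725 bp in. Mdm4, an inhibitor of p53, had 125 and 188 over a start 5171 bp in, and its outer start lay in an Early-B peak of pileup 16.4. Of the internal peaks in these lists, 2 of 17 (signalling), 2 of 19 (cytoskeleton), 3 of 9 (RNA) and 2 of 10 (ubiquitin) were at least 1.5 times wider in Early-B cells. None was so in progenitors, where the share over all strong shared peaks was 2.65%, so these counts are too small to read.

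At the edge of the rule, the lowest internal peaks had pileups of 50.1 and 112 (Iqsec1), 50.2 and 73.6 (Gfod1), 66.9 and 50.3 (Mtus2), 50.3 and 53.9 (Pde1c) and 57.9 and 50.3 (Arntl) in Early-B cells and progenitors. Just outside it were peaks in Lifr with 49.9 and 117, Onecut3 with 49.9 and 80.9, Ppm1h with 65.1 and 49.9, Armc3 with 49.9 and 59.6 and Frmd4b with 53.9 and 49.8. Peaks on either side of the limit thus differ little in pileup.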

How the data were processed

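H3K4me3 in Early-B cells and Ebf1-/- progenitors was read from 1 deposited peak list per group; samples of other assays were not used here. The submitters' processing notes name mm10 and GRCh38 as builds and, as tools, MACS 1.4.3 and Bowtie 1.1.2, without their roles. Pooling of replicates and the use of input are not stated in them. The pileup (a coverage signal) and the fold enrichment (a ratio to background) are the authors' values, per the file headers. The −log10 p column the authors deposited has a damaged name and was read by its place and values, and it entered no comparison. Each peak was set beside the widest strong progenitor peak it overlapped, and its host is the shortest protein-coding span holding its centre. Genes, spans and start windows are from RefSeq (GRCm38.p6), and 747 of 748 gene list entries matched. The peaks and gene lists were chosen with earlier results of these data known. Genes named are those with the highest pileup, extreme widths or width ratios, several internal peaks, values next to the limit or a non-coding neighbour, up to 6 hosts per list, and genes said to be chosen after their values were seen. The EBF core and NRF1 palindrome were searched as fixed strings on both strands. The steps were tested on simulated lists. Tables were handled with pandas 2.3.3 and numpy 2.4.6 under Python 3.11.15, and figures drawn with matplotlib 3.10.9.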

Additional observations from a re-analysis of the deposited data

How the results depend on the processing

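The number of internal peaks, 926, moved to 455 with a pileup of at least 100 in both lists and to 614 with a fold of at least 10 as well. It stayed between 644 and 1123 with a pileup limit of 75 or 40, a distance of 500 bp or 2.5 kb, a larger overlap, or counting from the progenitor list. At a width ratio of 2, 39 peaks (4.21%, against 4.16% of all strong shared peaks) were wider in Early-B cells and 17 (1.84%, against 0.759%) in progenitors. At 5 to 4 there were 239 (25.8%, against 27.9%) and 87 (9.40%, against 7.67%). With summed Early-B widths under the progenitor peak, 21 were wider in progenitors; the cause of that move is that 1 progenitor peak then counts against all its Early-B peaks. Summed progenitor widths gave 118 and 34. Counts near a non-coding gene end, at gene ends and with a host start stayed within 1.5 times of the reported ones. At gene ends, a window of 2.5 kb can count an internal peak as its own gene-end peak. Summing Early-B widths, leaving out the 15 peaks of low fold and taking host starts within 1 kb of a peak (543 peaks) were chosen after seeing the data. No paired analysis was possible because each group has 1 list, whose columns carry no replicate numbers, and no replicate could be left out. The depth is unknown, so no limit of detection can be given.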
